A study of Mus musculus with 9 samples.

Results

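Numbered Zfp genes are mouse genes whose symbol is Zfp followed by a number, a naming scheme for zinc finger proteins. The 113 genes described here were chosen by a measured value, a mean count of 100 or more in each deposited comparison table, from 332 numbered Zfp genes among 23988 symbols shared by the tables. Zfp36, which encodes an RNA-binding protein of a different zinc finger type, was left out, and 219 numbered Zfp genes fell below the limit. The tables come from RNA sequencing of microdissected dentate gyrus, the hippocampal region packed with granule neurons, from 9 C57BL/6 mice aged 8 weeks in groups named E0, E1 and E4 with 3 mice each. The study examined neuronal activation. Neither the unit of the number after E nor a treatment, genotype or sex is in the labels, and from what is known of the study the numbers are read here as hours after electroconvulsive stimulation.

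Most of these genes encode C2H2 proteins, in which each finger is folded around a zinc ion by a pair of cysteines and a pair of histidines, and arrays of fingers read DNA. Many also carry a KRAB domain, which recruits the corepressor Trim28 (KAP1), and through it the histone methyltransferase Setdb1, to silence retroelements and imprinted regions. Others are general promoter factors, subunits of chromatin complexes, RNA-binding proteins or ubiquitin ligases that share little beyond the name. The coding sequences of GENCODE transcripts, searched for a C2H2 finger pattern, held at least 2 fingers in 103 members, 1 finger in 6 and none in 4 (Zfp330, Zfp365, Zfp781 and Zfp839), so the label fits most of the set. The median was 9 fingers and the highest 36, in Zfp142, and a pattern for the KRAB A box matched 39 members. KRAB genes below are genes with such a match. How many KRAB domains the pattern missed was not tested, so a missing match does not show that the domain is absent.

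The members are expressed at low to middling levels. Mean counts, which average normalized counts over the 6 libraries of a comparison, had a median of 169 and ran from 101 to 1826 in the authors' deposited table of E1. They had a median of 329 and ran from 105 to 3564 in the authors' deposited table of E4, which has a scale of its own. The highest were Zfp365, which encodes a Disc1-binding protein and had mean counts of 1826 and 3564, Zfp106, an RNA-binding protein (1489 and 3168), and Zfp706, a small single-finger protein (1538 and 3127), each read from the authors' deposited tables for E1 and E4. Just inside the limit in the authors' deposited table of E1 were Zfp235 at 101, Zfp319 at 102.3 and Zfp639 at 102.8. Just outside it in the authors' deposited table of E1 were Zfp692 at 99.6, Zfp37 at 99.2 and Zfp433 at 98.8.

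The limit is not neutral. A mean over E0 and E1 libraries lets a gene pass because it was high in E1, and 12 of the 113 members would not pass a limit of 100 on the E0 mean count that the fold changes imply. They include Zfp839, Zfp39, Zfp113, Zfp65, Zfp408 and Zfp937, whose rises in E1 helped to choose them. Counts of members that rose or fell in E1 are therefore a description of the chosen genes and support nothing.

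The E1 libraries were the shallowest, at about 1940000, 3360000 and 4760000 reads in genes, estimated from the mean count that 1 read gives. The same estimate gave 6140000 to 10960000 reads for E0 and 10020000 to 13550000 for E4. No table gives a value per mouse, so levels per animal cannot be shown, and every error below is the authors' standard error (SE). All 8 granule neuron markers, which define the labelled tissue, were detected, among them Prox1, at 990.5 in mean count by the authors' deposited table of E1. In E1, 6 of 8 granule markers were lowered and 1 raised, 6 of 8 GABAergic interneuron markers were raised and none lowered, and 5 of 6 astrocyte markers were lowered, while 2 of 4 endothelial markers were raised. Of 7 CA1 or CA3 pyramidal neuron markers 2 were raised and 1 lowered in E1. Of 5 oligodendrocyte markers 1 was raised and 2 lowered, and of 6 microglia markers 2 were lowered. Among all genes that pass the members' limit, 25.4% were raised and 22.1% lowered in E1. In E4, 3 granule markers were raised and 4 lowered, 2 interneuron markers were raised, and no astrocyte, endothelial or oligodendrocyte marker was called. Among pyramidal neuron markers 1 was raised and 2 lowered in E4, and 1 microglia marker was lowered. The shares of genes that pass the members' limit were 30.5% raised and 23.6% lowered in E4. Of 4 choroid plexus markers, Folr1 and Kcne2 had mean counts of 0.283 and 1.32 and Ttr 26.4, while Kl had 133.6 and was lowered in E1 at −1.03 ± 0.216, per the authors' deposited table. The part of cell composition in the results below was not tested, and in bulk tissue fewer cells of a type and less RNA per cell cannot be told apart.

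E1 was set against E0 to ask which Zfp transcripts had changed soonest after activation. At an adjusted p below 0.05 in the authors' deposited table, 30 of 113 members were raised, 23 were lowered and 60 were not called. The background was close: of all 15660 genes tested 20.6% were raised, 15% lowered and 35.5% called either way, and of the 7747 genes that pass the members' limit (well-read genes below) 25.4% were raised, 22.1% lowered and 47.5% called. The members' shares were 26.5% raised and 20.4% lowered, with a median log2 fold change of 0.03 beside −0.01 for the well-read genes. The balance of rises and falls turned with the processing: with the trend of fold change on transcript length and GC content removed it was 19 raised to 34 lowered, with genes chosen by the implied E0 mean count it was 22 to 30, and with a limit of 50 it was 39 to 45. With that trend removed, all genes together had 2750 raised and 2400 lowered in E1. The members' balance was thus not that of all genes in this setting, and the difference was not tested.

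Zfp839 stood far from every other member in E1. Its implied mean count was 69.2 in E0 and 1077 in E1, and it was back at 112.6 in E4 beside 119.8 for E0 on the scale of the E4 table. The log2 fold change in the authors' deposited table of E1 was 3.96 ± 0.195 (SE), a 15.6-fold rise with a DESeq2 adjusted p of 2.02e-89. The next member reached 2.10. RefSeq places a pseudogene, Mpc1-ps, over the Zfp839 locus, so reads of both may be counted together where strand is not used, and 1.66% of the 50-base words of its transcript also occur in another gene.

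Behind it came several KRAB genes, in an order that the choice of members partly builds in. Zfp39, Zfp113, Zfp65 and Zfp937, like Zfp408 below, would not pass the limit on their implied E0 mean count. Their rises in E1 helped to choose them, so their place here gives no support to a rise of KRAB genes as a class. Zfp39 went from an implied mean count of 78.6 in E0 to 337 in E1, a log2 fold change of 2.10 ± 0.234 in the authors' deposited table. Zfp113 went from 72.2 to 263, at 1.87 ± 0.203, and Zfp65 from 73.4 to 249, at 1.76 ± 0.48 with the widest error of any member, both by the authors' deposited table of E1. Zfp937 (1.44 ± 0.236) and Zfp781 (1.41 ± 0.222) also rose in the authors' deposited table of E1. Reads of these genes are uncertain, since 29.4% of the 50-base words of Zfp937 and 96.3% of those of Zfp781 also occur in other genes. The gene sharing most of them was Zfp442 for Zfp937 and Gm3055 for Zfp781. Zfp408, a 10-finger gene without a KRAB match whose human counterpart is linked to retinal vessel disease, rose by 1.57 ± 0.212 in the authors' deposited table of E1. Zfp189, a 16-finger KRAB gene, went from an implied 174.6 to 461 and rose by 1.40 ± 0.162 with a DESeq2 adjusted p of 1.42e-16 in the authors' deposited table of E1.

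Large falls in E1 came mostly from genes without a KRAB match, which are also most of the members (74 of 113). Zfp362, a relative of Zfp384, fell by 1.29 ± 0.222 on the log2 scale, from an implied 152 to 62.1, in the authors' deposited table of E1. Zfp687, which works in a chromatin complex with Zfp592, Zfp532 and Zmynd8, fell by 1.17 ± 0.213 in the authors' deposited table of E1. Zfp646, with 27 fingers, fell by 1.14 ± 0.204 in that comparison, from an implied 180.5 to 82.1, per the authors' deposited table. Zfp46 was the exception with a KRAB match and fell by 1.08 ± 0.16 in the authors' deposited table of E1. Zfp956 and Zfp358 each fell by 1.07, Zfp651 by 0.98 and Zfp319 by 0.95 on the log2 scale in the authors' deposited table of E1. Over Zfp362, Zfp687, Zfp646, Zfp956, Zfp651 and Zfp319, but not Zfp46 and Zfp358, RefSeq has another gene. Reads may be counted in common there, and their part in these falls was not tested. At a size of at least 1 on the log2 scale, 11 members were raised and 6 lowered in E1, against 1 raised and 0 lowered in E4.

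**Figure D1:**
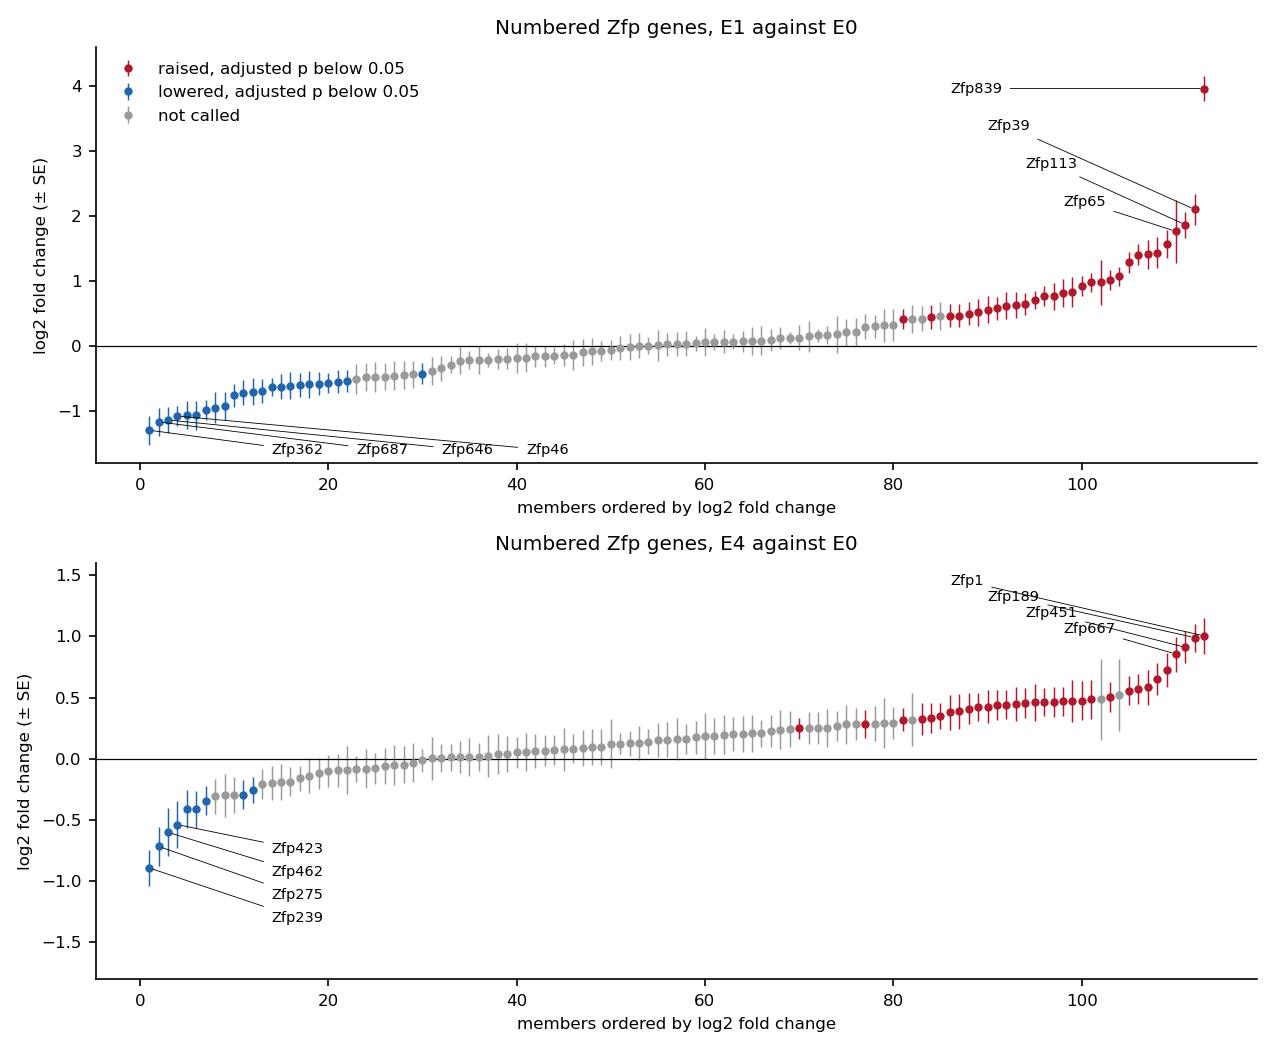
Log2 fold change (vertical axis) of the 113 numbered Zfp genes against E0, ordered from lowest to highest, for E1 (upper panel) and E4 (lower panel, with a finer axis). Points are the authors' deposited estimates and bars their SE, with called genes in red (raised) or blue (lowered); Zfp839 stands apart at 3.96 in E1, and in E4 the called genes are mostly on the raised side (32 against 9).

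The comparison of E4 with E0 asks what was still or newly changed at the later time. In the authors' deposited table of E4, 32 members were raised, 9 were lowered and 72 were not called. Among all 14455 genes tested 20.7% were raised, 18.3% lowered and 39% called either way, and among well-read genes 30.5% were raised, 23.6% lowered and 54.1% called. The members' 28.3% raised was thus near the background and their 7.96% lowered was below it. Their median log2 fold change was 0.16, beside 0.06 for well-read genes, and whether the lowered share differs from that of other genes of this level was not tested. The split hardly moved with the trend on length and GC content removed (27 raised, 9 lowered) or with genes chosen by the implied E0 mean count (32 and 10). With the trend removed, all genes together had 2891 raised and 2619 lowered in E4.

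The largest rises in E4 were close to 2-fold. Zfp1, a KRAB gene with 8 fingers, went from an implied mean count of 187 in E0 to 376 in E4, a log2 fold change of 1.004 ± 0.148 in the authors' deposited table. Zfp189 went from 325 to 645, at 0.99 ± 0.115 with a DESeq2 adjusted p of 1.74e-16 in the authors' deposited table of E4, and was thus raised in both comparisons. Zfp451, a SUMO ligase, went from 239.8 to 451, at 0.91 ± 0.131 in the authors' deposited table of E4, after a value of −0.02 in that for E1. Zfp667 (Mipu1), a KRAB repressor, rose by 0.86 ± 0.143 and Zfp488, which acts with Olig2 in the oligodendrocyte lineage, by 0.73 ± 0.14 in the authors' deposited table of E4. Zfp488 shares 15% of its 50-base words with other genes, most of all with 4930533N22Rik. Zfp646 rose by 0.65 ± 0.132, Zfp68 by 0.58 ± 0.141 and Zfp445, an imprinting factor, by 0.57 ± 0.121 in the authors' deposited table of E4.

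Falls in E4 were few and smaller. Zfp239 went from an implied 421 to 227, a log2 fold change of −0.89 ± 0.149, and was lowered in E1 too, at −0.72 ± 0.194, per the authors' deposited tables. Zfp275 fell by 0.72 ± 0.162, Zfp462, a large protein of chromatin and development, by 0.60 ± 0.196, and Zfp423, a partner of EBF and Smad factors, by 0.54 ± 0.191 on the log2 scale in the authors' deposited table of E4. Zfp612 and Zfp316 each fell by 0.41, Zfp687 by 0.34, Zfp260 by 0.29 and Zfp46 by 0.25 on the log2 scale in the authors' deposited table of E4.

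Both contrasts share their E0 libraries, so calls of 1 sign in both are partly built in. Side by side, Zfp189, Zfp26, Zfp397, Zfp445, Zfp644, Zfp654 and Zfp655 were raised in both, and Zfp239, Zfp46 and Zfp687 lowered in both. A call in one comparison and not in the other does not show that they differ.

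The difference between E4 and E1 was computed as the difference of the fold changes against E0, with the SE of both combined, which counts the shared E0 error in both terms and so is cautious. By Benjamini-Hochberg adjusted normal p over 12769 genes, 29 members were higher in E4 than in E1 and 17 lower. Among all of those genes 17.7% were higher, 19% lower and 36.7% called, and among well-read genes 22.9% were higher, 22.1% lower and 45% called. The members' median difference was 0.16 beside 0.04. With genes chosen by the implied E0 mean count the split was 36 higher to 10 lower, and with the shared E0 variance subtracted 38 to 23.

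The genes higher in E4 had mostly been low in E1. Since the E1 value is subtracted, choosing genes by the difference partly builds this in, and likewise for genes lower in E4. Zfp646 differed by 1.79 ± 0.243 (combined SE), Zfp362 by 1.62 ± 0.258, Zfp651 by 1.33 ± 0.185, Zfp777, a KRAB gene, by 1.26 ± 0.24 and Zfp282, another KRAB gene, by 1.21 ± 0.258 on the log2 scale. Of these, Zfp646, Zfp362, Zfp651 and Zfp777 were lowered in E1 and raised in E4. Those lower in E4 had mostly been raised in E1 and were led by Zfp839 at −4.05 ± 0.276, Zfp39 at −2.02 ± 0.293, Zfp275 at −2.002 ± 0.232, Zfp113 at −1.68 ± 0.276 and Zfp65 at −1.47 ± 0.521. The difference of Zfp65 was no longer called with the length and GC trend removed, at −1.22. Zfp275 crossed from 244% of its E0 level in E1 to 60.9% in E4, by the implied mean counts.

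**Figure D2:**
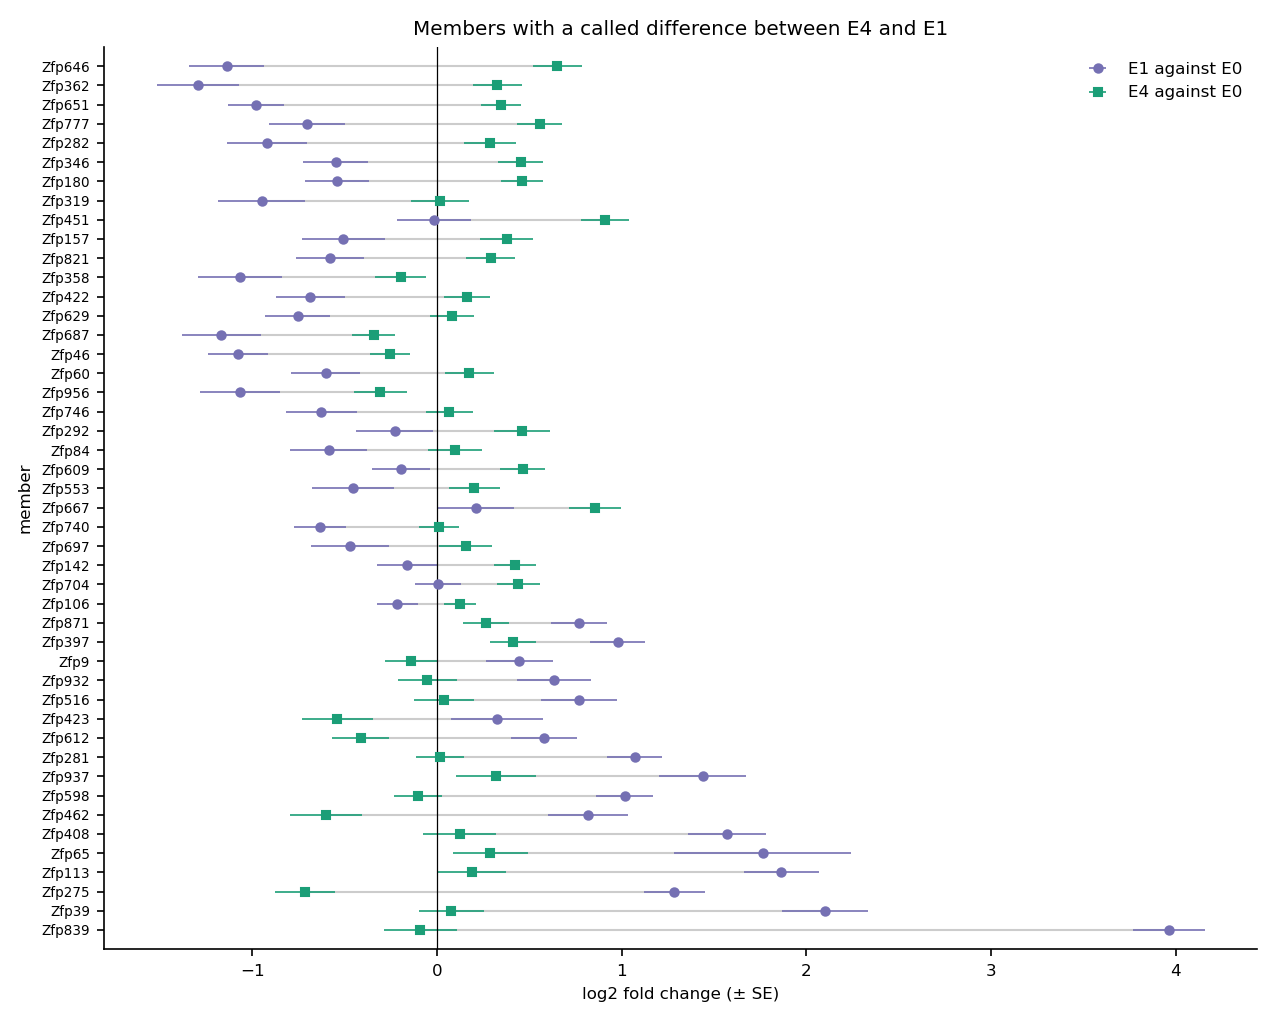
The 46 members with a called difference between E4 and E1, each with its log2 fold change against E0 in E1 (purple circles) and in E4 (green squares) with the authors' SE as bars and a grey line joining them. Genes higher in E4 are at the top and were mostly below 0 in E1, which the subtraction partly builds in. Zfp839, at the bottom, moves from 3.96 to −0.09.

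By role, of 9 members that act on RNA, ribosomes or ubiquitin 1 was raised and 1 lowered in E1, and 3 were raised and 0 lowered in E4. Their medians were 0.07 and 0.25 on the log2 scale, beside −0.01 and 0.06 for well-read genes. Of those well-read genes 25.4% were raised and 22.1% lowered in E1, and 30.5% and 23.6% in E4. Zfp598, the ubiquitin ligase that marks collided ribosomes, went from an implied 162 to 328 in E1, a log2 fold change of 1.02 ± 0.154, and was −0.10 ± 0.131 in E4, per the authors' deposited tables. Zfp346 (JAZ), which binds double-stranded RNA, fell by 0.55 ± 0.174 in E1 and rose by 0.45 ± 0.122 in E4, per the authors' deposited tables. Zfp326, of the DBIRD complex of transcription and splicing, rose by 0.48 ± 0.159 and Zfp706 by 0.32 ± 0.0929 in the authors' deposited table of E4. The other members, Zfp91, a ubiquitin ligase, Zfp106, Zfp207, a spindle factor, Zfp330 and Zfp622, were called in neither comparison with E0. Their log2 fold changes ran from −0.21 for Zfp106 to 0.08 for Zfp330 in the authors' deposited table of E1. With the length and GC trend removed Zfp106 was lowered in E1, at −0.45.

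Of 17 chromatin complex and promoter factors 5 were raised and 5 lowered in E1, and 4 were raised and 2 lowered in E4. With the length and GC trend removed the E1 split was 3 to 6. Among well-read genes 25.4% were raised and 22.1% lowered in E1, and 30.5% and 23.6% in E4. Zfp281, a regulator of embryonic stem cell identity, rose by 1.07 ± 0.149 in E1 and returned to 0.02 ± 0.131 in E4, per the authors' deposited tables. Zfp277 (0.98 ± 0.343), Zfp462 (0.82 ± 0.216), Zfp516 (0.77 ± 0.207) and Zfp644, a partner of the methyltransferase G9a (0.50 ± 0.174), also rose in the authors' deposited table of E1. Besides Zfp687, falls were seen for Zfp746 (PARIS), a repressor linked to parkin, at −0.63 ± 0.192, Zfp507 at −0.61 ± 0.204, Zfp532 at −0.57 ± 0.158 and Zfp608 at −0.42 ± 0.159 in the authors' deposited table of E1. In E4 the rises were Zfp609, a partner of the cohesin loader, at 0.46 ± 0.122, Zfp644 at 0.45 ± 0.136, Zfp384 at 0.43 ± 0.133 and Zfp592 at 0.29 ± 0.116, per the authors' deposited table. Of the Zfp687 complex, Zfp687 and Zfp532 were lowered in E1, and Zfp592 was not called there, at −0.15 ± 0.169, per the authors' deposited table. Zfp148, Zfp219, Zfp335 and Zfp827 were called in neither comparison with E0. With the length and GC trend removed, Zfp277 and Zfp644 in E1 and Zfp592 in E4 were no longer called, and Zfp148 was lowered in E1 at −0.82.

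The neural development list, chosen with earlier results known, had 5 members. Of these 1 was raised in E1, and 4 were raised and 1 lowered in E4. The shares of well-read genes were 25.4% raised and 22.1% lowered in E1, and 30.5% and 23.6% in E4. The rises in E4 were Zfp189, Zfp292 (0.46 ± 0.152), Zfp191, which is now named Zfp24 and is needed for myelination (0.33 ± 0.124), and Zfp365 (0.25 ± 0.0838), and the fall was Zfp423, per the authors' deposited table of E4. Zfp365 went from an implied mean count of 3257 to 3872, a change of small size in a gene with a small error. Of the list of KRAB factors known from imprinting and retroelement silencing, Zfp445 and Zfp932 were members. Zfp445 was raised in both comparisons, at 0.70 ± 0.14 and 0.57 ± 0.121, and Zfp932 only passed in E1, at 0.63 ± 0.2 with −0.05 ± 0.16 in E4, per the authors' deposited tables. Zfp932 shares 45.2% of its 50-base words with other genes, most of all with Gm15446, so its reads are uncertain. With the length and GC trend removed, Zfp191 and Zfp292 in E4 and Zfp932 in E1 were no longer called, and Zfp292 was lowered in E1 at −0.73. The 80 members in no role list had 21 raised (26.25%) and 17 lowered (21.25%) in E1. In E4 they had 20 raised (25%) and 6 lowered (7.5%), to be read beside the same shares of well-read genes.

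KRAB factors work through a corepressor machinery that includes Trim28 and Setdb1. Trim28 had a log2 fold change of −0.23 ± 0.115 in E1 (DESeq2 adjusted p 0.103) and 0.12 ± 0.089 in E4 (0.296), per the authors' deposited tables. Setdb1 was −0.32 ± 0.154 (DESeq2 adjusted p 0.0882) and 0.17 ± 0.112 (0.242) in the authors' deposited tables for E1 and E4, so neither was called. Of 20 genes of this machinery 1 was raised and 5 lowered in E1, and 6 were raised and 5 lowered in E4, beside 25.4% raised and 22.1% lowered in E1 and 30.5% and 23.6% in E4 among well-read genes. Hdac1, a histone deacetylase, was lowered in both comparisons, at −0.74 and −0.90, and Dnmt3a, a DNA methyltransferase, went from −0.14 to 0.93 on the log2 scale, per the authors' deposited tables. Their listed relatives went other ways. Hdac2 was lowered in E1 at −0.49 and raised in E4 at 0.45. Dnmt1 was not called in E1, at −0.15, and was lowered in E4 at −0.47. Dnmt3b was called in neither, at −0.43 and 0.66, with low mean counts.

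Members with and without a KRAB match differed in E1 more than in E4 by their counts. Of 39 with a match 17 were raised and 5 lowered in E1, with a median log2 fold change of 0.30, and of 74 without 13 were raised and 18 lowered, with a median of −0.09. In E4 the counts were 11 raised and 3 lowered with a match (median 0.20) and 21 and 6 without (0.14). From E1 to E4, 7 genes with a match were higher and 8 lower, against 22 higher and 9 lower without. These counts rest on members whose choice used E1 libraries: chosen by the implied E0 mean count, 37 KRAB genes had 13 raised and 8 lowered in E1 with a median of 0.08, and 76 others had 9 and 22 with a median of −0.20. That choice also turned the balance of KRAB genes from E1 to E4, to 9 higher and 4 lower, beside 27 and 6 of the others. The difference between the classes was not tested.

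GC content moved with the same split. The median GC content of the longest transcript was 43.3% with a KRAB match and 48.8% without, beside 49.5% for well-read genes. Of the 38 members lowest in GC (36.9% to 43.2%) 15 were raised and 1 lowered in E1, of the middle 37 there were 10 and 8, and of the 38 highest (50.7% to 68.7%) 5 and 14. In E4 these counts were 15 and 1, 8 and 4, and 9 and 4. Spearman's rho of GC content with log2 fold change was −0.41 in E1 and −0.27 in E4 over the 113 members, and −0.27 and −0.13 over 7728 well-read genes, a description over genes that share libraries and depth. Below the members' median GC, 16 of 30 genes with a KRAB match were raised and 2 lowered in E1, against 7 and 2 of 26 without. At or above it, 1 of 9 with a match was raised and 3 lowered, against 6 and 16 of 48 without. With the length and GC trend removed, 10 KRAB genes were raised and 8 lowered in E1 (median 0.06), against 9 and 26 of the others (−0.23), and from E1 to E4 8 KRAB genes were higher and 4 lower, against 27 and 9. The part of GC content in the E1 split was not tested beyond these values.

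**Figure D3:**
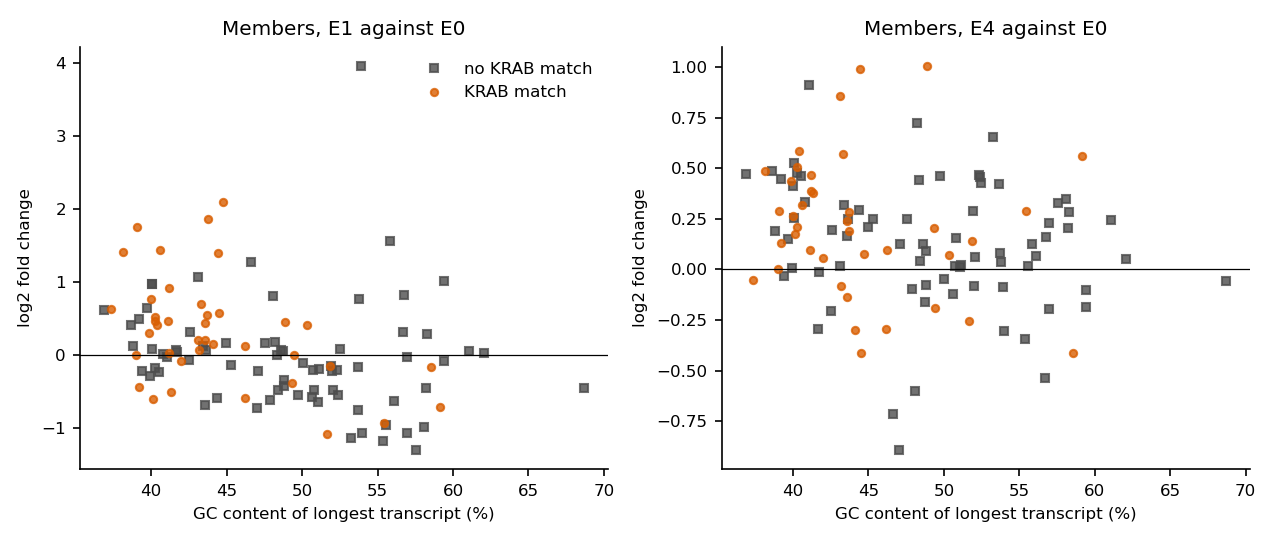
Log2 fold change against E0 (vertical axes, with different ranges) by the GC content of the longest transcript in percent, for E1 (left) and E4 (right), 1 point per member, with KRAB matches as orange circles and the others as grey squares. KRAB genes lie mostly at low GC, and in E1 raised genes at high GC include Zfp839, Zfp408 (1.57) and Zfp598 (1.02).

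By number of fingers, the share raised in E1 was 19.2% of 26 members with 0 to 4, 21.2% of 33 with 5 to 9, 33.3% of 33 with 10 to 14 and 33.3% of 21 with 15 or more. The share lowered in E1 was 19.2%, 30.3%, 15.2% and 14.3% in the same classes. In E4 the shares raised were 30.8%, 42.4%, 15.2% and 23.8%, so the order of the classes was not that of E1. For comparison, 25.4% of well-read genes were raised and 22.1% lowered in E1, and 30.5% were raised in E4. No difference between the classes was tested.

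Related genes were counted in the same way. As background, 25.4% of well-read genes were raised and 22.1% lowered in E1, and 30.5% and 23.6% in E4. For all genes tested these shares were 20.6% and 15% in E1, and 20.7% and 18.3% in E4. Of the numbered Zfp genes below the limit, 207 had an adjusted p in E1, with 16 raised, 45 lowered and a median log2 fold change of −0.34, and 197 had one in E4, with 14 raised, 12 lowered and a median of −0.07. Genes that a high E1 value lifted over the limit are missing from this group, which partly builds in its balance in E1. Of 18 well-read Zbtb genes, which pair fingers with a BTB domain, 10 were raised and 2 lowered in E1, and 7 and 2 in E4. Another 14 well-read genes with a KRAB match and at least 2 fingers had 9 raised and 1 lowered in E1 (median 0.79, GC content 40.9%), and 0 raised and 1 lowered in E4. Like the members, these 14 genes and the 18 Zbtb genes passed a limit that a high E1 value helps to reach. Their counts in E1 therefore describe chosen genes and give no independent support. All 10 listed immediate early zinc finger genes of the Egr and Klf families were raised in E1, with a median of 1.67. In E4, 5 of these were raised and 1 lowered. They were listed with earlier results of these data known, so their count in E1 is no independent reference.

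**Figure D4:**
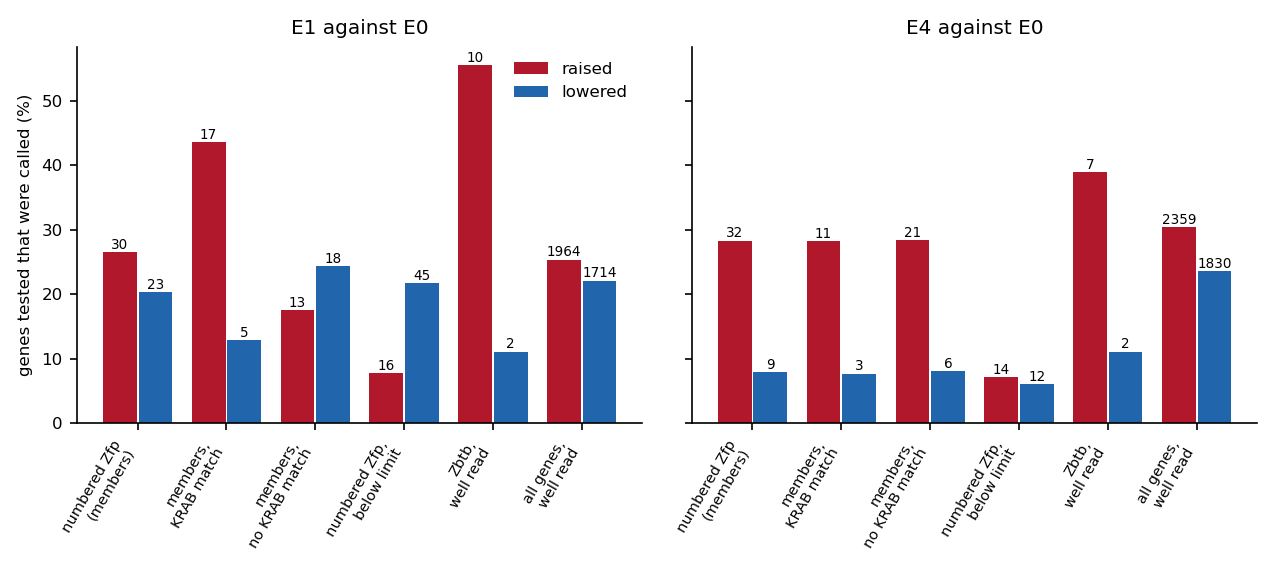
Percent of genes tested that were raised (red) or lowered (blue) in E1 (left) and E4 (right), with the number of genes over each bar, for the members, the members with and without a KRAB match, the numbered Zfp genes below the limit, and well-read Zbtb genes and well-read genes of any kind. In E4 the members' lowered bar, at 7.96%, lies below that of all well-read genes, at 23.6%. The limit uses E1 libraries, so the E1 bars of groups above and below it are partly built in.

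Some members sit side by side in the genome. In the RefSeq gene order Zfp956, Zfp777 and Zfp746 follow one another on chromosome 6, and all were lowered in E1, at −1.07 ± 0.216, −0.70 ± 0.207 and −0.63 ± 0.192, per the authors' deposited table. In E4 Zfp777 was raised at 0.56 ± 0.122, while Zfp956 was at −0.31 ± 0.144 and Zfp746 at 0.07 ± 0.127, neither called, per the authors' deposited table. On chromosome 9 Zfp26, Zfp426 and Zfp266, all with a KRAB match, had log2 fold changes of 0.51 ± 0.125, 0.24 ± 0.162 and 0.44 ± 0.123 in the authors' deposited table of E4, with Zfp426 not called. On chromosome 13 Zfp65 rose in E1 and its neighbour Zfp738 was at 0.01 ± 0.24 in the authors' deposited table. On chromosome 5 Zfp12 rose in E1 (0.41 ± 0.154) and Zfp316 fell in E4, per the authors' deposited tables. RefSeq has another gene over 40 of the 113 members, where reads may be counted in common.

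Promoter windows of RefSeq on GRCm38.p6, from 250 bases before to 50 after the start, matched 93 of the 113 members. They were searched on both strands for sites of activity-regulated factors: the CRE TGACGTCA bound by CREB, its 5-base core TGACG, which lies within the full CRE, the AP-1 site TGANTCA and the EGR site GCGTGGGCG. The full CRE was found in 4 windows (Zfp266, Zfp335, Zfp426 and Zfp523), or 4.3%, beside 3.82% of the 6158 well-read genes with a window and 2.03% of 27025 windows. The core was in 36 windows, 38.7%, which is the same share as in those 6158 genes (38.7%), beside 23% of all windows. The AP-1 site was in 6 windows (6.45%, beside 5.47% and 8.97%) and the EGR site in 1, that of Zfp507 (1.08%, beside 1.59% and 0.707%). Of 24 members raised in E4 with a window, 10 held the core, and of 23 raised in E1, 9 did. A match is a run of letters and not a measured site.

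The 100 bases before the start are shown for 3 members with large rises and for the neighbours Zfp266 and Zfp426, picked after their values were seen, with the CRE or its core in capitals on the gene's strand (a core on the other strand reads CGTCA). Zfp189 was raised in both comparisons, Zfp451 in E4, Zfp839 in E1 and Zfp266 in E4, whereas Zfp426 was called in neither although it holds the same full CRE as Zfp266.
Zfp189, chr4:49521076-49521175, plus strand: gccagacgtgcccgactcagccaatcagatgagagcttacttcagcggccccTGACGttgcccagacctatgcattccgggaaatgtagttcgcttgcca
Zfp451, chr1:33814596-33814695, minus strand: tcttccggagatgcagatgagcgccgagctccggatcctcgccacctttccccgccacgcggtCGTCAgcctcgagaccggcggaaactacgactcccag
Zfp839, chr12:110850179-110850278, plus strand: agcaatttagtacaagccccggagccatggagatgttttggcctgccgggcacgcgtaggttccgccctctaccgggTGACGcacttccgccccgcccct
Zfp266, chr9:20521420-20521519, minus strand: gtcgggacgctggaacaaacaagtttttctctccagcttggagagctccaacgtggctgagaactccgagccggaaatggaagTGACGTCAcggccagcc
Zfp426, chr9:20492747-20492846, minus strand: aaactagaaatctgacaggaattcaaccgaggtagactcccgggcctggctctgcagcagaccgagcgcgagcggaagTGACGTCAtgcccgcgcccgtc

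A last set of members showed no call in any of the 3 comparisons. It held 35 genes (31%, beside 24.4% of well-read genes), among them Zfp146, Zfp207, a spindle and splicing factor, Zfp335, Zfp512 and Zfp91. The absence of a call in E1 has to be read with its error: the members' median SE was 0.194 in E1 and 0.139 in E4, beside 0.153 and 0.119 for well-read genes, each from the authors' deposited tables.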

How the data were processed

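RNA of 9 dentate gyri (3 per group, groups from the sample titles) was sequenced, and 2 tables of comparisons were used. TopHat2 alignments to mm9 were compared with DESeq2, per the submitters' processing notes. Not given in the sources used here: counting program, annotation, strand setting. The deposited signal is the mean of normalized counts over a comparison's libraries. The deposited log2 fold changes (with SE), score (their ratio) and p-values are the authors', per the file headers. The log2 fold changes appear shrunken toward 0, with a median size of 0.142 and 0.106 in the authors' deposited tables where the mean count is below 1. The tables do not name their reference group, read as E0, the group they have in common. No count test fitted, so the authors' adjusted p below 0.05 was the call. Each mapped column was used and 0 columns were unmapped.

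Implied group means solve the mean count for the fold change, with equal numbers per group. Shrunken fold changes draw the implied means of the 2 groups toward each other, so these means are approximate. E4 against E1 used the difference of log2 fold changes over the combined SE for genes whose mean count reaches 10 in each table; it was tested on simulated data. Members and lists were chosen with earlier results of these data known. Named were, per comparison with E0, the 8 largest rises and 8 largest falls, the 5 largest differences each way, role list members, 3 genes on each side of the limit, the 3 highest, Trim28 and Setdb1; other genes were added after their values were seen. Fingers and KRAB matches were to come from a RefSeq protein table; translated GENCODE vM21 (GRCm38) coding sequences were used instead, and GRCm38 coordinates do not apply to the mm9 files. P-values measure the spread between these mice. Python 3.11.15, pandas 2.3.3 and scipy 1.17.1 were used.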

Additional observations from a re-analysis of the deposited data

Results flagged for a closer look

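In 9 members E1 and E4 were called with opposite signs against E0 and the difference between them was called too. The direction was down in E1 and up in E4 for 6 of them, with differences of E4 minus E1 on the log2 scale of 1.79 for Zfp646, 1.62 for Zfp362, 1.33 for Zfp651, 1.26 for Zfp777, and 1.002 each for Zfp180 and Zfp346. It was up in E1 and down in E4 for 3, with differences of −2.002 for Zfp275, −1.42 for Zfp462 and −0.99 for Zfp612. RefSeq has another gene over Zfp646, Zfp362, Zfp651, Zfp346 and Zfp462, and the part of reads from those genes was not tested. With opposite signs the difference is the sum of both sizes, so its call nearly follows from the other calls and adds no support. How many well-read genes had opposite calls was not counted.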

How the results depend on the processing

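No paired analysis was possible because the tables hold no value per library, and for the same reason no replicate could be left out. With a mean count limit of 200 (42 members) 12 were raised and 7 lowered in E1, 17 and 4 in E4, and from E1 to E4 9 were higher and 5 lower. With a limit of 50 (197 members) 45 were lowered in E1, 17 lowered in E4 and 50 higher in E4 than in E1. At an adjusted p below 0.01, 3 members were lowered in E4 and 10 lower in E4 than in E1. At a log2 fold change of at least 0.5 in size, 10 were raised and 4 lowered in E4. With the length and GC trend removed 19 were raised in E1. The next alternatives were chosen after seeing the data. Without members that overlap another gene or share over 20% of 50-base words (69 left), 17 were raised and 11 lowered in E1, 19 raised in E4, and from E1 to E4 15 were higher and 10 lower. With genes chosen by the implied E0 mean count, 10 were lower in E4 than in E1. Removing the trend changed the sign of 15 values of named members, none of them called either way. In E1 these became −0.32 (Zfp191), −0.13 (Zfp207), −0.17 (Zfp330), −0.11 (Zfp622), −0.0575 (Zfp706) and −0.0228 (Zfp91). In E4 they became −0.13 (Zfp148), −0.0218 (Zfp281), −0.0404 (Zfp319) and −0.0163 (Zfp516). In E4 against E1 they became 0.0917 (Zfp207), −0.0641 (Zfp219), 0.078 (Zfp445), 0.00253 (Zfp639) and 0.28 (Zfp644). Over all 113 members, removing the trend took E1 from 30 raised and 23 lowered to 19 raised and 34 lowered. Among the values of named members alone, it ended 8 calls and made 8. The ended ones were Zfp277, Zfp644 and Zfp932 in E1, Zfp191, Zfp292 and Zfp592 in E4, and Zfp65 and Zfp932 in E4 against E1. Changed calls of members that are not named are not listed here. The made ones were Zfp106 (−0.45), Zfp148 (−0.82) and Zfp292 (−0.73) in E1, and Zfp148, Zfp191, Zfp507, Zfp532 and Zfp706 in E4 against E1, from 0.35 for Zfp706 to 0.69 for Zfp148. With p-values adjusted over well-read genes alone, 142 of 142 values of named genes kept direction and call. Fewer members explain the smaller counts at the limit of 200 and without overlapping genes; otherwise the cause was not tested. The shallow E1 libraries limit what E1 can show.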
